A study of Drosophila melanogaster with 3 samples.

Results

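The regions described here are binding sites of Lpt-GFP at the starts of noncoding genes in whole white prepupae of Drosophila melanogaster. Chromatin of males and females together came from a transgenic line that stably expresses Lpt fused at its C terminus to GFP, and was immunoprecipitated with an antibody against GFP. The data were 3 biological replicates of this 1 group, so no genotype, treatment or time was compared, and the age is given only as the white prepupa. Of the 6110 peaks that passed the authors' irreproducible discovery rate (IDR) threshold, 287 were chosen by the position of their summit, the point within a peak that the authors' lists mark. The summit had to lie within 1000 bp of a noncoding transcription start site (TSS), pseudogenes included, and over 1000 bp from every protein-coding one. The annotated start of each gene entry served as its TSS. For RNAs cut from longer transcripts, such as microRNA hairpins, this start need not be a promoter. These 287 noncoding-only promoter summits were 4.70% of all IDR summits (exact 95% interval 4.18 to 5.26, counting error only). A further 2600 summits lay within 1000 bp of a coding TSS, 253 of them also within 1000 bp of a noncoding TSS, and 3223 lay over 1000 bp from every TSS.

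Lpt is a subunit of the COMPASS-like complex built around the methyltransferase Trr, the fly relative of mammalian MLL3 and MLL4 complexes. The complex adds methyl groups to lysine 4 of histone H3 at enhancers and promoters, and Trr is known as a coactivator of the ecdysone receptor. The white prepupa forms at the end of larval life after a pulse of ecdysone. Many noncoding genes are short and sit within introns of coding genes, whereas primary microRNA transcripts are long RNAs from which hairpins are cut and processed to mature microRNAs. Since whole animals were used, fewer cells that carry Lpt at a site and less Lpt per cell cannot be told apart.

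The sequences below show what lay under the summits that recur in the results. They are 151 bases of the plus strand centred on the noncoding-only summit of highest pooled signal at each gene. They were read from the RefSeq Release 6 genome, which is the dm6 build of the peak lists. Capitals mark a match on either strand to the GAGA repeat (GAGAGA), the TATA box (TATAAA), the CA repeat (CACACACA), the AP-1 site (TGANTCA), an E-box (CAGCTG), the core of the DREF site (CGATA) or the nuclear receptor half-site (AGGTCA). The first is inside the let-7 complex primary transcript, the second before the primary transcript of mir-279 and mir-996, the third before the bantam primary transcript and the next inside that of mir-282. After these come sequences from the strongest of the noncoding-only summits, at lncRNA:CR44619 and lncRNA:CR46035, and the last from Hsromega, the heat-inducible gene whose RNA builds the omega speckles of the nucleus.
lncRNA:let7C, chr2L:18456193-18456343: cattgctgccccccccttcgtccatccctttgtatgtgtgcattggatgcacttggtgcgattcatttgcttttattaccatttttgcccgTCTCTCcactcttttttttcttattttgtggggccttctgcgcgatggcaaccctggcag
lncRNA:CR31044, chr3R:29214377-29214527: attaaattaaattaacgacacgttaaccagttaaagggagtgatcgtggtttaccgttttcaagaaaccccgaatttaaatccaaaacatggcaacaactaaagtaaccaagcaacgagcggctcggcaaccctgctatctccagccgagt
lncRNA:CR43334, chr3L:628099-628249: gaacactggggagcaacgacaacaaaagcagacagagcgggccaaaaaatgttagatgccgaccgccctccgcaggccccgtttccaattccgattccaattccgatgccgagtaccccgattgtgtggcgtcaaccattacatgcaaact
lncRNA:CR43626, chr3L:3250115-3250265: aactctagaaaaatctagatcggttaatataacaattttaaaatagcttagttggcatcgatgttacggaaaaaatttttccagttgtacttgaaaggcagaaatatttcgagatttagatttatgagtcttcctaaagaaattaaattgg
lncRNA:CR44619, chrX:12751272-12751422: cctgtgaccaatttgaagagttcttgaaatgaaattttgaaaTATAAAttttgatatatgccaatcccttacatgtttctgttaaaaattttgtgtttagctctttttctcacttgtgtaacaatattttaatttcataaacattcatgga
lncRNA:CR46035, chr3R:17704341-17704491: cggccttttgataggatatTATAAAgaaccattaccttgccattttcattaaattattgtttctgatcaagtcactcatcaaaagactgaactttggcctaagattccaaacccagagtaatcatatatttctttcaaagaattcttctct
lncRNA:Hsromega, chr3R:21296288-21296438: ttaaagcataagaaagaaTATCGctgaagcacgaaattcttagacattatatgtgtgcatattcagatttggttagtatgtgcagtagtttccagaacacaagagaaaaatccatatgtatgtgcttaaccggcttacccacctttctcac
The let-7 complex window held 1 GAGAGA match, read as its reverse complement, and the CR44619 and CR46035 windows 1 TATAAA each. The Hsromega window held 1 CGATA match, also on the other strand. The windows of CR31044, CR43334 and CR43626 held none of these letters, and their GC content was 42.4%, 53.6% and 28.5%.

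The mature microRNAs below are those of 5 of the primary transcripts that carried noncoding-only summits. They were read from the same genome at the RefSeq positions of the named arm, as DNA letters, with the seed (bases 2 to 8, which pair with target messages) in capitals. All 8 are encoded on the plus strand.
let-7-5p, chr2L:18472044-18472064: tGAGGTAGtaggttgtatagt
miR-100-5p, chr2L:18471445-18471466: aACCCGTAaatccgaacttgtg
miR-125-5p, chr2L:18472343-18472364: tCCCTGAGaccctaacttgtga
bantam-3p, chr3L:642259-642281: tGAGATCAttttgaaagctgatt
miR-279-3p, chr3R:29215651-29215672: tGACTAGAtccacactcattaa
miR-996-3p, chr3R:29217244-29217265: tGACTAGAtttcatgctcgtct
miR-282-5p, chr3L:3251038-3251061: tAGCCTCTactaggctttgtctgt
miR-9a-5p, chr3L:19565140-19565162: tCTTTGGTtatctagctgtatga
miR-279-3p and miR-996-3p shared 1 seed, and the other 6 seeds each occurred in a single microRNA of this set. let-7, miR-100 and miR-125 are cut from 1 primary transcript and are known as the heterochronic microRNAs that rise with the ecdysone pulses at the end of larval life. bantam promotes growth and blocks apoptosis, and miR-9a limits the number of sensory organ precursors.

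By the class of the nearest noncoding TSS, 235 of the 287 summits (81.9%) belonged to long noncoding RNA (lncRNA) genes, 17 to tRNA genes, 15 to antisense RNA genes, 13 to microRNA hairpins, 4 to pseudogenes, 2 to snoRNA genes and 1 to the RNA of RNase MRP, an enzyme of ribosomal RNA processing. No member belonged to an snRNA or rRNA gene. The summits lay near 264 distinct noncoding genes. Of these, 57 had 2 or more members and 10 had 3, while 250 summits were near a single noncoding gene. As 41 member peaks overlapped another IDR peak, merging them left 268 separate loci. Lists of the 6110 strongest peaks of each replicate held 294, 282 and 286 such summits in replicates 1, 2 and 3, or 287 ± 6.11 (SD, n = 3). The number per class was 236 ± 9.81 for lncRNA, 15.3 ± 3.51 for tRNA, 16.0 ± 2.65 for antisense RNA and 11 ± 3.46 for microRNA genes, so the counts of the small classes varied by a larger part of their size.

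Seen from the genes, 208 of 1959 lncRNA genes (10.6%, exact 95% interval 9.29 to 12.1) had a noncoding-only summit, against 18 of 290 tRNA genes (6.21%), 15 of 260 microRNA hairpins (5.77%), 13 of 503 antisense RNA genes (2.58%), 5 of 269 snoRNA genes (1.86%) and 4 of 268 pseudogenes (1.49%). With summits near coding TSSs included, antisense RNA genes stood at 16.1% (81 genes) and lncRNA genes at 15.6% (306 genes), and coding genes at 19.2% (2682 of 13945). The antisense RNA share was thus near the lncRNA share with these summits and below it without them. Only 116 of the 503 antisense RNA genes lay over 2000 bp from every coding TSS, against 1246 of the 1959 lncRNA genes. The rule therefore left less room for noncoding-only summits at antisense RNA genes, and its part in the difference was not tested. Among genes over 2000 bp from every coding TSS, the share was 12.4% of 1246 lncRNA genes, 10.8% of 167 tRNA genes, 7.24% of 152 hairpins and 5.17% of 116 antisense RNA genes. None of the 99 annotated rRNA genes of these arms had a summit. How the authors treated reads of repeated gene copies is not stated in the labels or file headers.

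**Figure D1:**
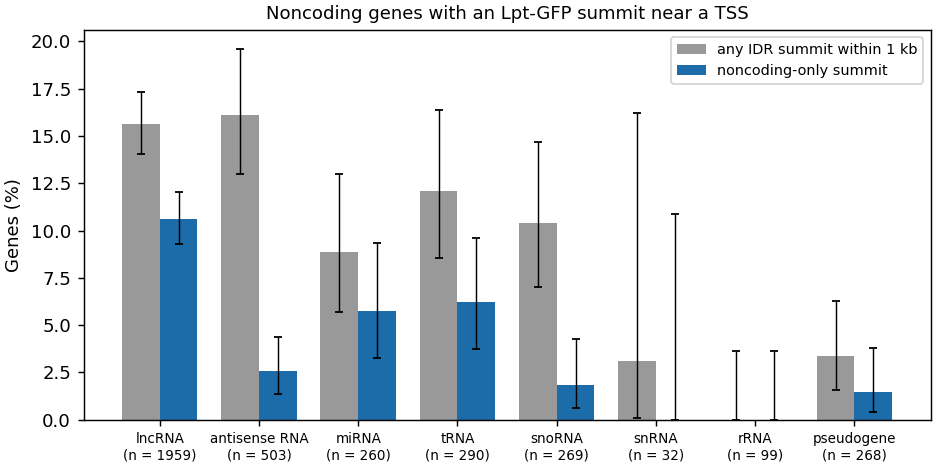
Share of annotated noncoding genes of each class (percent, y axis) with any IDR summit within 1 kb of a TSS (grey) or with a noncoding-only summit (blue), with exact 95% binomial intervals that cover counting error only. Antisense RNA genes fall from 16.1% to 2.58% once summits near coding TSSs are left out, lncRNA genes from 15.6% to 10.6%. Of these genes, 116 of 503 antisense RNA and 1246 of 1959 lncRNA genes lay over 2000 bp from every coding TSS.

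Of the members, 189 (65.9%) overlapped 1 of the 6110 strongest peaks in all 3 replicates, close to the 63.5% of all IDR peaks that did. A further 75 did so in 2 replicates, 21 in 1 and 2 in none. The members strong in no replicate were summits at lncRNA:CR44661 on X, with signals of 32.2, 43.8 and 11.3 in replicates 1, 2 and 3, and at lncRNA:CR44904 on 2L, with 33.7, 48.8 and 19.2. Signal is the authors' signal value of a peak within its own list, of no stated scale, here that of the strongest overlapping peak. The lowest signal among the 6110 strongest was 35.9, 50.0 and 29.6. Both summits therefore fell just short of those lists in replicates 1 and 2 and further short in replicate 3. Counting any overlapping peak, 282 members had a peak in all 3 replicates.

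The median signal of the members was 59.5, 83.7 and 47.5 in replicates 1, 2 and 3. It was 58.4, 81.6 and 53.8 at coding promoter summits and 54.5, 75.4 and 47.7 at summits over 1000 bp from every TSS. Summits with no overlapping peak in a replicate were left out of its median. In replicate 3 the medians covered 283 of 287 members and 2503 of 2600 coding promoter summits. They covered 3185 of the 3223 summits over 1000 bp from every TSS. The effect of the missing summits on the differences below was not tested. Replicate 2 had the highest values and replicate 3 the lowest for all 3 kinds of summit, in the order of the medians of the whole lists (25.0 in replicate 2, 18.5 in replicate 1 and 16.7 in replicate 3). On the log2 scale, members minus coding promoter summits gave −0.04 ± 0.12 (SD of the 3 within-replicate differences), with 2 differences above 0 and 1 below (p = 1, exact two-sided sign-flip permutation test, n = 3). Over replicates 1 and 2 alone, with the same summits, the mean difference was 0.033, of the opposite sign. Members minus summits far from any TSS gave 0.09 ± 0.09, with 1 difference below 0 (p = 0.5, same exact permutation test). The smallest p this test allows with 3 replicates is 0.25, so it could not pass 0.05 whatever the values. Of the 611 strongest IDR peaks, 36 were members (12.5% of the members), against 13.5% of coding promoter summits and 6.98% of summits far from TSSs. In single replicates the members' share was 12.2% ± 0.791, the distal share 7.05% ± 0.771 and the coding share 13.4% ± 1.15 (SD, n = 3). The members' share was above the distal share in 3 of 3 replicates and below the coding share in 3 of 3 (p = 0.25 for each, exact sign-flip permutation test). Adjusted over the 9 such tests made here, p was 0.321.

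The 2 strongest members did not lie at microRNA genes. The strongest was a summit 520 bp before lncRNA:CR44619 on X (chrX:12751347), the sixth peak of the whole list, with signals of 453, 607 and 502. A second summit 491 bp inside the same gene had 263, 382 and 289, so strong peaks lay on either side of its start in every replicate. Before these, a weaker member lay 502 bp inside lncRNA:Vinr, a gene of 2457 bp on the same strand, with 36.9, 77.1 and 43.7. Summits were assigned to the nearest start, and whether those at CR44619 belong to Vinr was not tested. The next gene by pooled signal, lncRNA:CR46035, had a summit 721 bp inside it (chr3R:17704416), with 431, 566 and 395. CR46035 runs against the direction of its host gene osa, which encodes a subunit of the Brahma chromatin remodelling complex, and the nearest coding TSS was 13934 bp away. The following gene was lncRNA:CR31044, the mir-279 and mir-996 transcript, with 353, 472 and 337 at a summit 110 bp before its start.

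Replicate 2 had the highest signal at each of the 12 strongest summits. At lncRNA:CR44713 and its neighbour CR44714 on 3L, 6051 bp from scyl, which encodes a hypoxia-induced inhibitor of TOR signalling, the signals were 285, 509 and 222. The summit inside let7C had 298, 361 and 244. The summit 188 bp before lncRNA:CR44339, 4185 bp from the Polycomb group gene Psc, had 309, 314 and 225. The summit 920 bp before lncRNA:CR45643, which neighbours the trithorax group gene tara, had 218, 316 and 241. The last 4 of the 12 were at lncRNA:CR46102 in an intron of the lipoprotein receptor gene LpR2, at asRNA:CR44512 in an intron of Zw, which encodes glucose-6-phosphate dehydrogenase, at lncRNA:CR44676 on 3L and at lncRNA:CR45997 in an intron of the splicing regulator mbl. Their means were 256 ± 48.9, 236 ± 41.3, 227 ± 61.6 and 219 ± 50.2 (SD, n = 3). All 12 were among the strongest peaks of every replicate.

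**Figure D2:**
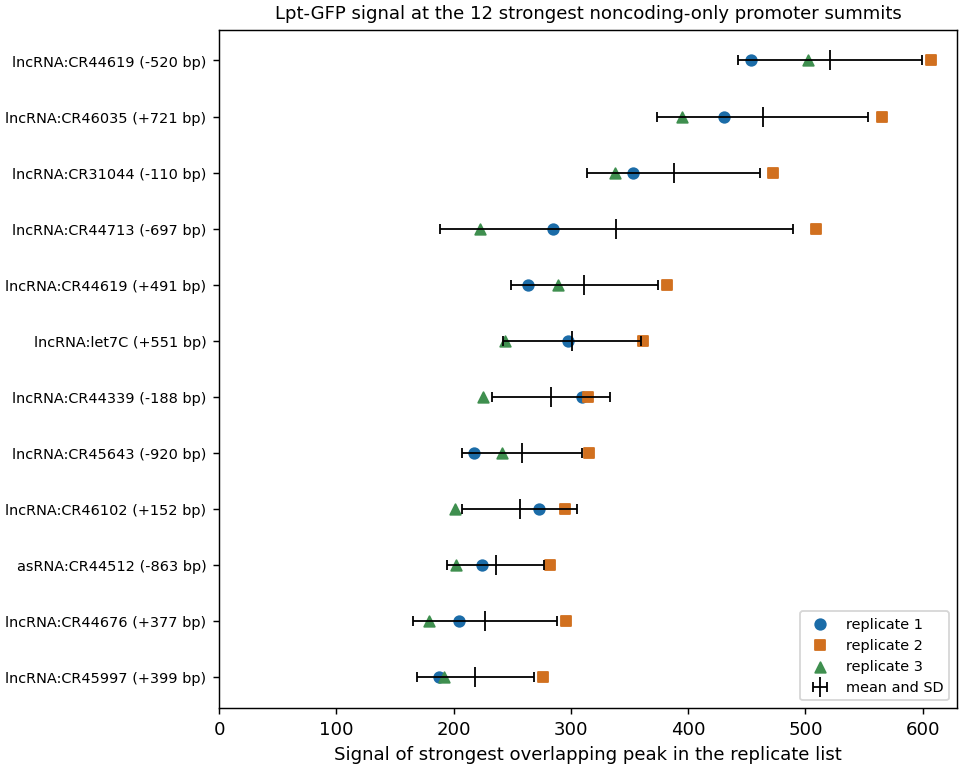
Signal of the strongest overlapping peak in each replicate list (x axis, the authors' signal value, linear) at the 12 noncoding-only summits of highest pooled signal. Labels give the nearest noncoding gene and the distance from its TSS. Colours and symbols mark the replicates and black bars the mean and SD; the CR44619 summit at −520 bp is highest in all 3, with 453, 607 and 502.

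A larger share of primary microRNA transcripts than of other lncRNA genes had a noncoding-only summit. Of the 34 lncRNA genes that hold a hairpin on their own strand, 13 had a member (38.2%, exact 95% interval 22.2 to 56.4), and of the 1925 other lncRNA genes 195 did (10.1%, interval 8.82 to 11.6). Among the 13, CR45917 with mir-92b is 986 bp long and its only summit lay 999 bp after its start, beyond its end. Hsromega is among them through the hairpin mir-4951. In the replicate lists the shares were 36.3% ± 4.49 and 9.99% ± 0.365 (SD, n = 3). This list was drawn up after the strongest members had been seen, and CR31044 and let7C were among them, so the shares are a description with no test. The hairpin-holding genes were longer (median 6117 bp against 654 bp), with a median of 1 TSS in each list. Among genes of at least 2000 bp, 11 of 31 hairpin-holding genes (35.5%) and 17 of 194 others (8.76%) had a member. The part of length in the difference was not tested.

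The levels at the 13 genes covered a wide range. lncRNA:CR31044 was highest at 388 ± 73.8, and its second summit, 322 bp before the mir-279 hairpin, had 63.2, 58.8 and 28.4. let7C followed at 301 ± 58.8, with 9 IDR summits within its 17416 bp, of which 1 was within 1000 bp of the start and none within 1000 bp of the hairpins mir-let7, mir-100 or mir-125. lncRNA:CR43626 had 3 members, not all of them separate peaks, the strongest by pooled signal at 150, 156 and 190. Another, 308 bp before its start, had 145, 219 and 145, with a higher replicate mean (169 against 165). A further summit at this gene was not a member, as it lay within 1000 bp of the TSS of CG43389. The Hsromega summit, 236 bp inside the gene, had 104, 154 and 87.2, and its second, at 908 bp, had 37.9, 113 and 22.6, the latter below the strongest 6110 peaks of replicate 3.

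The bantam transcript CR43334 had 2 members before its start that overlapped each other, so both took the same replicate signals of 99.0, 188 and 61.8. The stronger summit was the last base of a peak of 118 bp. A further 7 summits lay in its body, and another member lay 439 bp after the start of the mir-ban hairpin with 33.1, 86.8 and 32.7. The bantam replicates thus spread by more than 2-fold at both sites, with replicate 2 highest. lncRNA:CR45916, which holds mir-9a, had 55.5, 103 and 94.0, and lncRNA:CR43857, which holds mir-275, had 64.4, 112 and 73.0. CR43650, the transcript of mir-8, a regulator of growth and insulin signalling in the fat body, had 70.0, 117 and 43.4, and CR46006, of mir-276a, had 61.7, 71.6 and 66.6. The CR46006 summits were the farthest of all members from a coding TSS, at 58681 and 58895 bp. The lowest values were at the transcripts of mir-92b, mir-14, mir-bft and mir-375, with means of 47.0 ± 23.4, 47.2 ± 26.7, 43.6 ± 23.4 and 37.5 ± 7.22, which did not differ from each other beyond their SDs.

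No IDR summit lay within 1000 bp of a start of the other 21 hairpin-holding transcripts. Among them were those of mir-1 and mir-124, known for muscle and for the nervous system, of mir-10, of mir-34 with mir-277, of mir-184, of the 8 hairpins of the mir-309 cluster, and of mir-iab-4 and mir-iab-8 in the bithorax complex. In 3 of these 21, summits did occur in the gene body, 4 in CR43836 with mir-31b, 2 in CR46004 with mir-276b and 1 in CR44206 with mir-184.

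**Figure D3:**
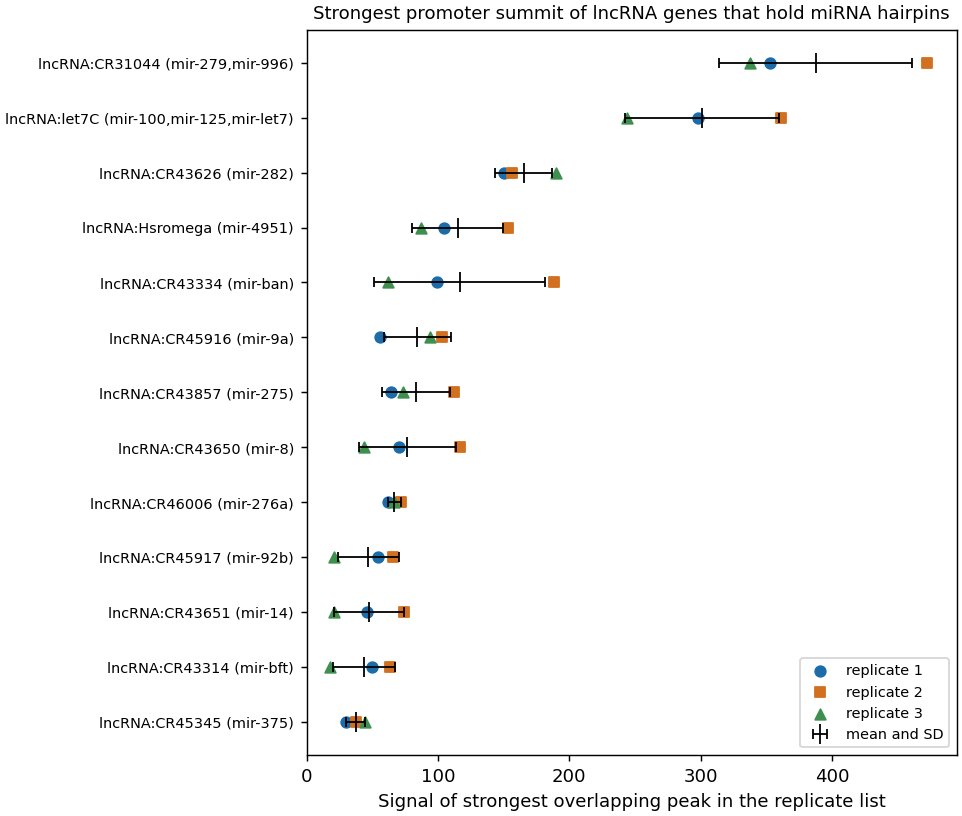
Replicate signal (x axis, the authors' signal value, linear) of the noncoding-only summit of highest pooled signal at the 13 lncRNA genes that hold microRNA hairpins, named with their hairpins. Symbols mark the replicates and black bars the mean and SD; the means run from 388 at CR31044 to 37.5 at CR45345, and 8 of the 13 genes lie below 100.

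Some noncoding genes with several members sat in introns of coding genes, and others, such as CR44713, CR44723 and CR45643, lay outside them. The hosts named here were picked after their values had been seen. Some members at the same gene or host overlapped each other, in osa, kis, Ctps and Dif among others. Numbers of members are therefore not numbers of separate sites. Introns of osa held 6 members at CR46035 and CR46036, and introns of kis, which encodes a trithorax group chromatin remodeller, held 6 at CR44218, CR44220, CR44222 and mir-965. The strongest of the kis members, 48 bp inside CR44222 and 1605 bp from a kis TSS, had signals of 114, 149 and 111. Ctps, the CTP synthase gene, held 3 members at asRNA:CR43971 and 1 at the pseudogene CR43972. EcR, Hr3 and InR held 2 members each. In EcR, the ecdysone receptor gene, a summit 862 bp after tRNA:Ile-AAT-1-1 had 83.9, 108 and 22.4. Another, 499 bp inside lncRNA:CR43904, had 41.1, 82.6 and 37.5. The nearest coding TSSs to these summits were of EcR itself, 2074 and 1967 bp away. In Hr3, which encodes an ecdysone-induced nuclear receptor, the stronger summit at lncRNA:CR46322 had 76.2, 107 and 88.5. The weaker had 73.4 and 73.1 and no overlapping peak in replicate 3. Both Hr3 summits also lay within the genes CG12912 and CG46321. In the insulin receptor gene InR, the stronger summit at lncRNA:CR44034 had 70.5, 63.0 and 54.6. Replicate 3 was lowest at the EcR and InR summits but not at the stronger Hr3 summit. Introns of ptc, the Hedgehog receptor gene, of puc, which encodes a JNK phosphatase, and of the NF-kappaB gene Dif also held 2 members each, the strongest with means between 109 and 155.

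Over all members, 182 (63.4%) lay outside coding genes, 100 (34.8%) in introns, 4 in untranslated exons and 1 in coding sequence. Introns held 42.7% of coding promoter summits and 72.8% of summits over 1000 bp from every TSS, and 36.6% and 25.3% of these lay outside coding genes. For 105 members the nearest noncoding TSS was itself inside a coding gene, 73 times on the opposite strand, 30 times on the same strand and in 2 cases on both, where host genes of both strands overlap. The median distance to the nearest coding TSS was 3720 bp. For 73 members (25.4%) it was at most 2000 bp, so a coding promoter was not far outside the limit, and for 51 it was over 10 kb.

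No member nearest to a hairpin, tRNA gene, snoRNA gene or pseudogene was among the 611 strongest IDR peaks, which held 12.5% of all members. These classes are small, and their median pooled signals were not all lower than the 172 of the 235 lncRNA members. The medians were 179 at 13 hairpin members, 147 at 17 tRNA, 222 at 2 snoRNA and 191 at 4 pseudogene members. The strongest at a hairpin was 388 bp after the start of mir-9377 in an intron of Tis11, which encodes an mRNA decay factor, with 134, 152 and 94.8. It was followed by one 130 bp before mir-2491 on X with 102, 145 and 70.0. For tRNA genes the strongest were at tRNA:Gln-TTG-2-1 on X with 128, 95.8 and 103, and at tRNA:Glu-CTC-3-1 on 3L with 78.6, 97.7 and 59.0. The gene tRNA:Phe-GAA-1-6 had 3 members, all before its start and each overlapping another. The tRNA summits lay a median of 547 bp from the tRNA start and only 2 of 17 within 250 bp, so few sat on the short genes themselves. The snoRNA members were at snoRNA:Me18S-G1358a in an intron of drn, with 76.0, 98.3 and 112, and at snoRNA:Or-ACA6 in an intron of egr, with 38.0, 50.9 and 57.8. The strongest pseudogene summits were at CR42490 with 86.9, 104 and 80.3 and at CR33294 with 67.7, 151 and 18.4, the latter 146 bp inside the gene and below the strongest 6110 peaks in replicate 3. The 15 antisense RNA summits had median signals of 82.3, 132 and 64.1, above the medians of all members in each replicate. Their strongest, after asRNA:CR44512, was 229 bp before asRNA:CR45999 with 175, 233 and 172.

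The distance to the TSS chose the members, so its spread within the limit is given as a description. The median distance was 404 bp, against 202 bp for coding promoter summits and their nearest coding TSS. Within 250 bp lay 92 members (32.1%) and 57.8% of coding promoter summits. In the replicate lists these shares were 30.8% ± 5.08 and 56.8% ± 2.13 (SD, n = 3). Upstream of the start lay 147 members (51.2%), against 66.9% of coding promoter summits, and 52.6% ± 0.568 against 67.5% ± 4.25 in the replicate lists. The coding summits were chosen without the matching limit, as 253 of them were also near a noncoding TSS. The single bin with most members was the 250 bp before the start, with 20.2% of members and 42.7% of coding promoter summits. Noncoding genes with a member had a mean of 1.09 annotated TSSs and coding genes with a promoter summit 1.93, and more TSSs per gene shorten the distance to the nearest. The part of this in the difference was not tested. Nor were annotated starts checked against transcript ends in these prepupae.

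**Figure D4:**
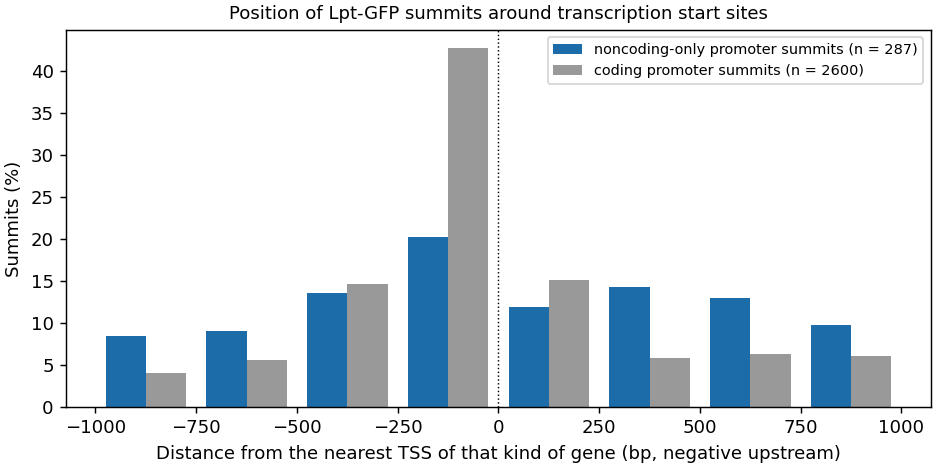
Share of summits (percent, y axis) by signed distance from the nearest TSS (x axis, bins of 250 bp, negative upstream) for the 287 noncoding-only summits and the nearest noncoding TSS (blue) and the 2600 coding promoter summits and the nearest coding TSS (grey). Coding promoter summits peak in the bin before the TSS at 42.7%, while the noncoding-only summits reach 20.2% there and are spread over all bins.

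By chromosome arm, arm 3L held 82 members, 3R 68, 2L 63, 2R 44 and X 30, and there was none on chromosome 4, which had 14 IDR peaks in all. Per Mb, X had 1.27 members, against 1.74 on 2R to 2.92 on 3L. The number on X was 30.3 ± 0.577 in the replicate lists (SD, n = 3), the smallest of the 5 large arms. Members were 2.62% of the IDR summits on X and 4% to 5.94% on the other large arms, and 4.53% of the noncoding genes on X had a member, against 5.77% to 9.42%. The roX1 and roX2 genes, whose RNAs guide dosage compensation of the male X, had no IDR summit within 1000 bp.

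For 3 motifs known from coding promoters, the members' shares were below those of coding promoter summits. For CGATA, the core of the DREF site, the share was nearer to that of distal summits. The same held for the E-box CAGCTG, at 6.27% of members, 9.73% of coding promoter and 6.55% of distal summits. The TATCGATA element bound by DREF at housekeeping promoters was found within 100 bp of 0 of 287 member summits, which allows a share of up to 1.05%, against 2.15% of coding promoter summits and 0.341% of distal ones. GGTCACAC, part of the element bound by M1BP, was also at 0 of 287, against 1.38% and 0.403%. For both motifs the limit of 1.28% lies between the coding and distal shares, so 0 of 287 does not decide which is nearer. The shorter CGATA, which is contained in TATCGATA, was at 46 members (16.0%), 24.8% of coding promoter summits and 16.8% of distal ones. Its share in the replicate lists was 14.7% ± 2.30 at noncoding-only and 24.7% ± 1.17 at coding promoter summits, lower in 3 of 3 replicates (p = 0.25, exact sign-flip permutation test, adjusted p = 0.321). This comparison was chosen after seeing the data. The pooled list comes from the same 3 replicates, so their shared direction is no independent support. Windows of the same length centred on annotated starts showed the same order without regard to Lpt. CGATA was in 24.3% of 3905 noncoding starts and 37.1% of 19252 coding starts, TATCGATA in 1.15% and 6.45%, and GGTCACAC in 0.743% and 5.68%.

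GAGAGA, part of the repeats that the GAGA factor binds, was near 36 members (12.5%), 17.3% of coding promoter summits and 15.1% of distal ones. In the replicate lists the members' share was 13.8% ± 3.39, a spread that covers the gap to the distal share. Windows centred on annotated starts, not on summits, held it in 7.27% of noncoding and 9.74% of coding cases. TATAAA was near 31.4% of members, 30.5% of coding promoter and 30.9% of distal summits, which differ by less than the replicate SD of 2.43. AGGTCA, the nuclear receptor half-site, was near 3.83% of members and 3.46% and 3.82% of the others, and its extended form CAAGGTCA, which contains it, was at 0 of 287. GTTCGANTC, the B box inside tRNA genes, was within 100 bp of 0 of 287 summits, and within 200 bp of 4 (1.39%, against 1.31% of coding promoter summits), while 17 members had a tRNA gene nearest. Every motif was searched on both strands, and its absence says only that these letters were not in the window.

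Among noncoding genes chosen whatever their values, no IDR summit lay within 1000 bp of bxd or iab8 of the bithorax complex, of noe, of the 2 annotated 7SL genes, or of 5 of the 7 annotated snoRNA host genes of the Uhg family. Uhg4 and Uhg8 had summits 99 and 253 bp before their starts, but these lay 516 bp from the TSS of Boot and 176 bp from that of CG5199. Of the 32 snRNA genes, 7SKa alone had a summit, with signals of 69.9, 91.1 and 44.2, 946 bp from the TSS of CG1142. These summits were counted with coding promoters.

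At the distance limit itself, the members just inside were a summit 1000 bp after the start of mir-4962 in an intron of Tlk, with signals of 90.7, 125 and 49.0, and one 999 bp after the start of CR44220, with 52.6, 56.7 and 32.6. Just outside were a summit 1002 bp after the start of CR46075, with 53.1, 62.9 and 55.7, and one 1006 bp before CR43857, with 62.0, 153 and 70.6. Levels on either side of the limit overlapped.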

How the data were processed

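Chromatin immunoprecipitation of Lpt-GFP was sequenced in 3 biological replicates. The authors deposited peak lists in dm6: 1 list of IDR-thresholded peaks, 1 input list per replicate (30000, 30000 and 27893 peaks) and 1 pooled input list. Per the deposited descriptions, the IDR list was derived from the replicate and pooled lists. The deposited lists give each peak a signal value and a summit offset in bases from the peak start. A further deposited column, whose label is not stated, was taken from the usual peak format as a −log10 q-value and enters no value given here. Signal has no stated scale and was used only to describe and rank peaks within a list, and the depth behind it is unknown. The sources used here name no aligner, peak caller or IDR threshold. No control was analysed here, so enrichment without Lpt-GFP was not measured.

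Summits were compared with the Ensembl release 115 annotation of release 6 on 6 arms, without transposable elements. Classes came from the Ensembl biotype and RefSeq (17682 of 18164 symbols matched). Positions are 1-based dm6 coordinates. Replicate signal is that of the strongest overlapping peak, at least 1 shared base, so overlapping members can share a value. Replicate lists were the 6110 strongest peaks. The only tests were exact two-sided sign-flip permutation tests over 3 replicates, of which 7 were chosen after seeing the data, with Benjamini-Hochberg adjustment over all 9. Of these, 3 on distance and 1 on primary microRNA transcripts used what had chosen the members or the list, and are not reported. Their p-values measure the spread between these samples only. Intervals are exact (Clopper-Pearson) two-sided 95% intervals, also for a count of 0. Scripts were tested on simulated data with 400 summits, of which 100% were placed in the right kind. Work was done in Python 3.11.15 with pandas 2.3.3 and numpy 2.4.6, tests used scipy 1.17.1, and plots used matplotlib 3.10.9.

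The members, lists and motifs were chosen with earlier results of these data known. Genes were named for the 12 strongest members, the 2 strongest of each class, the genes with most members, those nearest the distance limit, members strong in no replicate, and a set named whatever its values. The primary microRNA transcripts and host genes were added after seeing values.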

Additional observations from a re-analysis of the deposited data

How the results depend on the processing

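The number of noncoding-only summits was 204 with a TSS distance of 500 bp, 344 with 2000 bp, 283 without pseudogenes, 311 when the whole peak was used, and 145 among the 3055 strongest IDR peaks. Merging overlapping peaks gave 268 and long noncoding genes alone 257, both chosen after seeing the data. The share strong in all replicates was 93.1% among the 3055 strongest, 98.3% when any peak of a replicate list counted, and 72.8% to 78.0% (209 to 224 members) when overlap with the strongest peaks of only 2 replicates was required, each replicate being left out in turn. The log2 difference from coding promoter summits changed sign among the 3055 strongest (0.021) and without replicate 3. With 1 replicate left out and the summits limited to those strong in both others, it ranged from −0.099 to 0.017. With all summits kept, an alternative chosen after seeing the data, it ranged from −0.076 to 0.033. The positive values in these ranges were those without replicate 3, and the cause was not tested. The difference from distal summits stayed above 0 in all 12 alternatives, from 0.03 to 0.18. Within 200 bp of the summit, GAGAGA was found at 28.6% and CACACACA at 17.8% of members, against 12.5% and 7.67% within 100 bp, as a longer window holds more matches. The depth in reads is unknown, no control was analysed here, and with 3 replicates no exact permutation test could fall below p = 0.25.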

Other observations

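Several members formed runs at neighbouring noncoding genes far from coding starts, a pattern noticed in the data and not tested. On 3L, 4 members lay at lncRNA:CR42719 and lncRNA:CR43337, 9080 to 15892 bp from the TSS of Reg-2 and several kb before the bantam transcript. Their signals were 78.9, 93.6 and 69.9 at the strongest CR42719 summit and 108, 79.2 and 90.7 at the strongest CR43337 summit in replicates 1, 2 and 3. Elsewhere on 3L, 3 members lay at lncRNA:CR45097 and lncRNA:CR45098 and 1 at tRNA:Leu-CAA-2-2, 10446 to 15170 bp from caps, which encodes a leucine-rich repeat cell surface protein. The CR45097 summits overlapped and had 43.9, 71.6 and 46.9, and the tRNA summit had 81.9, 81.0 and 35.6. lncRNA:CR44810, 4517 bp from slbo, the C/EBP gene, had 172, 210 and 183 at a summit 145 bp before its start, and lncRNA:CR46090 in an intron of the ETS gene pnt had 141, 269 and 111.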
